A study of Mus musculus with 48 samples.

Results

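The Fos and Jun family, the subunits of the transcription factor AP-1, was followed through RNA-sequencing of the Cornu Ammonis (CA) of the mouse hippocampus. Its 7 genes, *Fos*, *Fosb*, *Fosl1*, *Fosl2*, *Jun*, *Junb* and *Jund*, were taken by symbol from the 24421 genes of the count table. Counts were sufficient for a test in 6 of the 7, and in 15570 of all genes, over the 48 libraries. *Fosl1* was the exception, with 0 to 3 reads per library.

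The study asked how the CA transcriptome responds to a new environment when the cannabinoid receptor CB1 is missing from 1 class of neuron. The libraries came from 48 male mice, labelled 8 weeks old, of 2 lines. Both lines were bred from CB1f/f mice, in which loxP sites flank the CB1 gene. In the Glu-CB1 line, Cre under the regulatory elements of *Nex* removes CB1 from glutamatergic neurons of the forebrain (Glu-CB1-KO). In the GABA-CB1 line, Cre under those of *Dlx5/6* removes it from GABAergic neurons of the forebrain (GABA-CB1-KO). CB1-WT littermates were the controls of each line. The tissue was dissected without the dentate gyrus and is a mixture of all its cells, so CB1 stays in the cells that Cre did not reach, and fewer cells of a type cannot be told apart from less RNA per cell. Mice were taken from the home cage (basal state) or an hour after 5 minutes in an open field arena that was new to them. In the Glu-CB1 line each state held 5 CB1-WT and 7 KO libraries. The GABA-CB1 line held 6 CB1-WT and 6 KO libraries in the basal state, and 7 and 5 after the open field. The study's text gives the sizes of these open field groups the other way round, and the labels were followed here. Each library is a different mouse. The libraries held 25892654 to 34091080 counted reads. Levels are given in CPM, the counts scaled to a common library size with TMM factors, as mean ± SD over libraries.

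*Cnr1*, the CB1 gene, separated the genotypes without overlap in both lines and states. In basal mice it was at 228 ± 15.9 CPM (n = 7) in Glu-CB1-KO against 379 ± 27.3 CPM (n = 5) in their CB1-WT littermates, and at 149 ± 6.53 CPM (n = 6) in GABA-CB1-KO against 349 ± 27.7 CPM (n = 6). Of 70 marker genes of 10 cell classes, 66 could be tested, and edgeR called 0 of them after the open field in either line (9 and 6 at an unadjusted p under 0.05, and 2 and 0 called by DESeq2, in the Glu-CB1 and GABA-CB1 lines). Over all genes tested, 2135 of 15355 and 1861 of 15374 had an unadjusted p under 0.05 in these lines. Between genotypes markers did move. After the open field, KO against CB1-WT had 3 markers called in the Glu-CB1 line (*Neurod6* and *Iyd* lower, *Npy* higher) and 17 at an unadjusted p under 0.05, and 0 called but 20 under 0.05 in the GABA-CB1 line (DESeq2 called 5 and 3). Of all genes, edgeR called 0.272% and 0.0199% in these comparisons. Those under 0.05 were 1051 of 15078 in the Glu-CB1 and 2000 of 15097 in the GABA-CB1 line. In the basal state 1 was called in each line, *Neurod6* and *Bok*. *Nex* is an older name of *Neurod6*, so in the Glu-CB1 line this marker is the gene chosen to direct Cre. In its lower level in Glu-CB1-KO mice, a change at that gene and a change in cell content therefore cannot be told apart. The part of the Cre allele was not tested. Markers of CA pyramidal cells summed to medians of 2534 to 2742 CPM per group. Those of dentate granule cells, which the dissection removes, still summed to medians of 241 to 279 CPM. Choroid plexus markers had median log2 differences between states of -1.37 in GABA-CB1-WT and 2.00 in GABA-CB1-KO mice, with none called.

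AP-1 is a dimer. Fos proteins pair poorly with one another and bind DNA mainly with a Jun protein, whereas Jun proteins can also pair among themselves. Synaptic activity drives *Fos*, *Fosb* and *Junb* within minutes through cAMP response elements and serum response elements in their promoters, without new protein synthesis, which makes them immediate early genes and *Fos* a widely used mark of recently active neurons. *Fosl2* follows more slowly, *Jund* is expressed at a steady level, and in many cells JunD and JunB restrain what Jun activates.

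The genes lie on 6 chromosomes of the mouse genome mm10. *Fos* is at chr12:85473901-85477270 (plus strand), *Fosb* at chr7:19302696-19310045 (minus), *Fosl1* at chr19:5447698-5455938 (plus) and *Fosl2* at chr5:32136472-32157839 (plus), each with 4 exons in the count table's annotation. The Jun genes have 1 exon each, *Jun* at chr4:95049036-95052222 (minus), *Junb* at chr8:84976909-84978748 (minus) and *Jund* at chr8:70697739-70700616 (plus). Counted exon length runs from 1705 bases for *Fosl1* to 5863 for *Fosl2*. The exons of *Fosl1* overlap those of *Ccdc85b* on the other strand, so its few reads depend on the strand setting of the counting. No exon of the other members overlaps another gene.

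Promoters are shown because the members fell apart in their response to the open field, and short motifs known to bind activity-dependent factors can be read in them. RefSeq promoters (GRCm38.p6, the build of mm10) were matched for 6 members, and the 250 bases before the start were searched on both strands. The lines give the last 120 bases before the RefSeq start, which need not be the first base of the counted exons, 5′ to 3′ on the strand of the gene, with matched motifs in capitals. The first 3 genes rose after the open field in both lines and *Jun* did not pass the test. *Fosl2*, which also rose in both lines, and *Jund*, which did not pass, are not printed.
Fos, chr12:85473770-85473889, plus strand: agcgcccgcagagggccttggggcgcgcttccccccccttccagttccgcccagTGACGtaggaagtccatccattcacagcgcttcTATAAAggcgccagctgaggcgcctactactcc
Fosb, chr7:19310046-19310165, minus strand: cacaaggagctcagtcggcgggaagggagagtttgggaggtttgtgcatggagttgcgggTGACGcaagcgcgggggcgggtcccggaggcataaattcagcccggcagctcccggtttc
Junb, chr8:84978749-84978868, minus strand: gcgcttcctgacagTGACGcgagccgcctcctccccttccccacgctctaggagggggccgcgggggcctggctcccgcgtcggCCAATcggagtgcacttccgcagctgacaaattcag
Jun, chr4:95052223-95052342, minus strand: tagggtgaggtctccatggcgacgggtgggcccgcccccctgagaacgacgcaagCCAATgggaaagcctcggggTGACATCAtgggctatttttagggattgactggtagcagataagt
The core of the cAMP response element (TGACG) was present in *Fos*, *Fosb* and *Junb*, beginning 66, 60 and 106 bases before the start, and once more in *Fos* at 129 bases. Of all 32851 promoters searched over the same length, 17.8% held it. The full element (TGACGTCA, which contains the core, in 1.55% of promoters) and the consensus AP-1 site (TGANTCA, in 6.75%) were in none of the 6. *Jun* held the variant TGACATCA (2.93% of promoters) at 45 bases. A TATA box (TATAAA, 12.4%) was found in *Fos*, and a CCAAT box (CCAAT, 33.8%) in *Jun* and *Junb*. No CArG box, the core of serum response elements (1.47%), lay in these windows. *Fosl2*, although it rose in both lines, held none of the motifs searched, and neither did *Jund*. These matches describe letters only.

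The members stood at very different levels. Per kilobase of exon in the basal state, *Jun* was the most abundant, with a median of 18.4 CPM per kb (15.6 to 21.7 over 24 libraries). *Junb*, *Jund* and *Fosl2* followed, with medians of 8.86, 8.59 and 7.84 CPM per kb, and *Fos* and *Fosb* were low, at 1.38 and 1.36 CPM per kb. After the open field the medians were 5.23 CPM per kb for *Fos* and 3.22 for *Fosb*, while that of *Jun* was 18.5. *Fos* made up a median of 3.05% of the family's summed level per kb in basal libraries and 9.54% after the open field, and *Jun* 40.1% and 30.6%. The 3 Jun genes together exceeded the 4 Fos genes in each of the 48 libraries, by a median ratio of 3.35 (1.79 to 4.70) in the basal state and 2.02 (1.52 to 3.24) after the open field. Shares and ratios of one total move together, and no test was made on them.

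**Figure D1:**
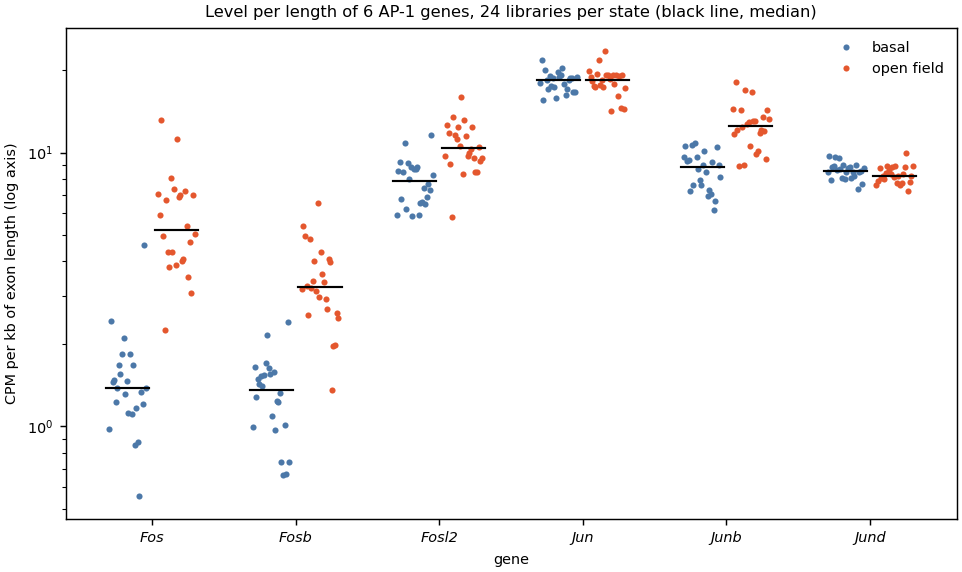
Level per length of 6 AP-1 genes in CPM per kb of exon (log axis), with 1 point per library, 24 basal (blue) and 24 open field (red) libraries per gene, and black lines at the medians. The median of *Fos* went from 1.38 to 5.23 CPM per kb and that of *Jun* from 18.4 to 18.5.

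*Fos* gave the largest open field response of the family. In basal Glu-CB1-WT mice it was at 2.05, 5.06, 3.04, 3.10 and 2.56 CPM, and after the open field at 14.8, 12.3, 27.5, 10.4 and 4.72 CPM. All but the last of these open field values exceeded the basal ones. In Glu-CB1-KO mice the lowest, median and highest levels were 2.74, 3.25 and 4.41 CPM in the basal state and 7.98, 9.05 and 16.98 CPM after the open field, with no overlap. Over both genotypes of the Glu-CB1 line, *Fos* rose by 1.92 on the log2 scale (95% interval 1.49 to 2.35, 3.78-fold, adjusted p = 5.16e-06, edgeR's quasi-likelihood test).

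In the GABA-CB1 line, *Fos* in CB1-WT mice ran from 1.79 over a median of 2.39 to 3.83 CPM in the basal state and from 8.43 over 14.4 to 23.5 CPM after the open field, again without overlap. In GABA-CB1-KO mice it ran from 1.16 over 2.65 to 9.65 CPM in the basal state and was at 7.35, 9.87, 6.42, 14.6 and 10.6 CPM after the open field. These KO groups overlapped through 1 basal library, replicate 5 at 9.65 CPM, described further on. Over both genotypes, *Fos* rose by 1.95 (1.41 to 2.48, 3.85-fold, adjusted p = 0.000299).

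*Fosb*, which also encodes the stable splice form ΔFosB that these gene-level counts do not separate, moved in the same direction by less. Basal Glu-CB1-WT mice had 3.73, 6.23, 4.84, 5.60 and 5.39 CPM, and open field mice 12.0, 20.3, 18.7, 12.3 and 9.60 CPM. Glu-CB1-KO mice ran from 5.29 over 5.84 to 8.11 CPM in the basal state and from 11.2 over 12.8 to 24.6 CPM after the open field. All 12 open field libraries of the line exceeded all 12 basal ones, a separation that 0.0257% of the 15570 genes showed in that direction. *Fosb* rose by 1.37 (1.09 to 1.65, 2.59-fold, adjusted p = 1.16e-06). In the GABA-CB1 line the CB1-WT groups ran from 3.66 over 4.65 to 5.98 CPM and from 10.1 over 13.6 to 16.4 CPM. GABA-CB1-KO mice ran from 2.51 over 2.79 to 9.07 CPM in the basal state, with 5.11, 7.42, 7.51, 9.81 and 9.37 CPM after the open field. The KO groups overlapped. No gene, *Fosb* included, had every open field library of this line above every basal one (0% of 15570). Over both genotypes *Fosb* rose by 1.30 (0.94 to 1.66, 2.46-fold, adjusted p = 0.000299).

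**Figure D2:**
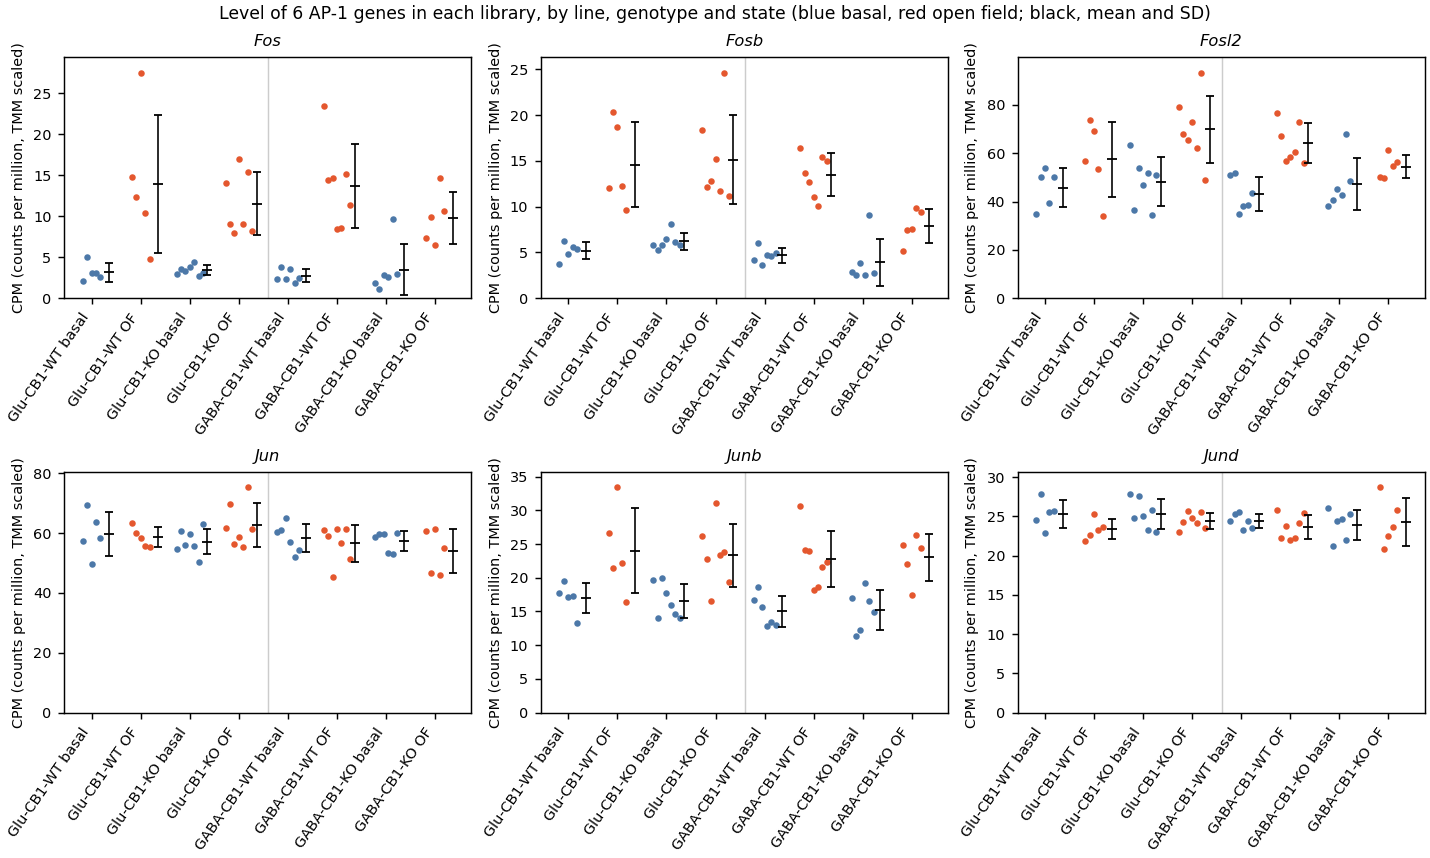
CPM of 6 AP-1 genes in each library (points, in order of replicate number) of the 8 groups, basal in blue and open field (OF) in red, with the mean and SD in black. Mean *Fos* and *Fosb* were higher after the open field in every line and genotype, with basal GABA-CB1-KO replicate 5 at 9.65 and 9.07 CPM, and group means of *Jun* lay between 53.9 and 62.7 CPM.

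*Junb* rose in both lines by a smaller amount. In the Glu-CB1 line it had 17.8, 19.5, 17.2, 17.3 and 13.3 CPM in basal CB1-WT mice and 26.6, 21.5, 33.4, 22.2 and 16.4 CPM after the open field. The Glu-CB1-KO groups ran from 14.01 over 16.03 to 19.9 CPM and from 16.5 over 23.4 to 31.1 CPM, so both genotypes overlapped between states. The difference was 0.49 on the log2 scale (0.29 to 0.70, adjusted p = 0.0105). In the GABA-CB1 line *Junb* ran from 12.8 over 14.5 to 18.6 CPM and from 18.2 over 22.3 to 30.6 CPM in CB1-WT mice. In GABA-CB1-KO mice it ran from 11.3 over 15.8 to 19.3 CPM, against 24.9, 22.03, 17.4, 26.4 and 24.4 CPM after the open field. The difference was 0.60 (0.41 to 0.79, adjusted p = 0.00134), although both genotypes overlapped between states.

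*Fosl2*, the Fos gene with the highest basal level per length, also rose in both lines, but close to the threshold. Its levels in the Glu-CB1 line ran from 34.3 over 50.01 to 63.5 CPM in 12 basal libraries and from 34.1 over 66.7 to 93.3 CPM in 12 open field libraries. The difference was 0.45 (0.21 to 0.69, adjusted p = 0.0441), and it lost its call in 16 of the 24 fits that left out 1 library (adjusted p from 0.00904 to 0.0924). In the GABA-CB1 line the levels ran from 34.7 over 43.1 to 68.0 CPM and from 49.7 over 57.6 to 76.9 CPM. The difference there was 0.41 (0.22 to 0.60, adjusted p = 0.0266), and the call was lost in 8 of 24 such fits (adjusted p from 0.000576 to 0.0566).

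*Jun* and *Jund* did not pass the test in either line. *Jun* ran from 49.7 to 69.3 CPM in all basal and from 45.2 to 75.3 CPM in all open field libraries. Its difference was 0.07 (-0.04 to 0.18, adjusted p = 0.658) in the Glu-CB1 and -0.06 (-0.17 to 0.05, adjusted p = 0.720) in the GABA-CB1 line. *Jund* ran from 21.2 to 27.9 CPM and from 20.8 to 28.7 CPM, with differences of -0.08 (-0.15 to -0.00260, adjusted p = 0.342) and -0.01 (-0.10 to 0.08, adjusted p = 0.952). These intervals leave room for changes of at most 0.18 on the log2 scale in either gene and line. *Fosl1* had 18 reads in all over the 24 basal and 27 over the 24 open field libraries. No library exceeded the 3 counts taken as the limit of detection, so a difference of *Fosl1* was not detectable at this depth.

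After the open field 4 of the 6 members tested were higher in each line, beside 1.8% of 15355 genes called in the Glu-CB1 and 0.963% of 15374 in the GABA-CB1 line. These shares, like the other shares of genes called, count both directions. Here 204 and 117 of the genes called were higher. The median log2 difference of the members was 0.47 and 0.50, against -0.00442 and -0.000552 over all genes tested. The difference of the response between the lines was within -0.10 to 0.13 for the 6 members, with 0 of 15570 genes called (0%, and 296 at an unadjusted p under 0.05). DESeq2 called none of the members there either.

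Within a genotype, with fewer libraries on each side, the calls differed. In Glu-CB1-WT mice *Fos* rose by 2.13 (adjusted p = 0.00447) and *Fosb* by 1.49 (adjusted p = 0.00198), beside 0.0261% of genes called. In Glu-CB1-KO mice *Fos* rose by 1.77 (adjusted p = 0.00398) and *Fosb* by 1.29 (adjusted p = 0.00125), beside 0.306% of genes. DESeq2 also called *Junb* there (0.49, adjusted p = 0.0250), and the fit of all 48 libraries *Fosl2* (0.54, adjusted p = 0.0421). *Fosb* was without overlap in both genotypes and *Fos* in the KO, where 0.629% (CB1-WT) and 0.173% (KO) of genes had every open field library higher.

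In GABA-CB1-WT mice 4 members rose, *Fos* by 2.34 and *Fosb* by 1.53 (both adjusted p = 0.00164), *Fosl2* by 0.58 (adjusted p = 0.0363) and *Junb* by 0.60 (adjusted p = 0.0449), beside 0.202% of genes called. *Fos*, *Fosb* and *Fosl2* did not overlap between states, as 0.482% of genes did not. The calls of *Fosl2* and *Junb* were lost in 9 and 15 of the 24 fits that left out 1 library. In GABA-CB1-KO mice no member passed, beside 0.0911% of genes, with *Fos* at 1.49 (0.74 to 2.24, adjusted p = 0.0943), *Fosb* at 1.00 (0.48 to 1.53, adjusted p = 0.107) and *Junb* at 0.60 (0.31 to 0.88, adjusted p = 0.0837). No member had every open field library above every basal one in these mice, which 0.681% of genes did. DESeq2 called *Fos* (adjusted p = 0.0316), *Fosb* (0.0344) and *Junb* (0.00912) there.

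**Figure D3:**
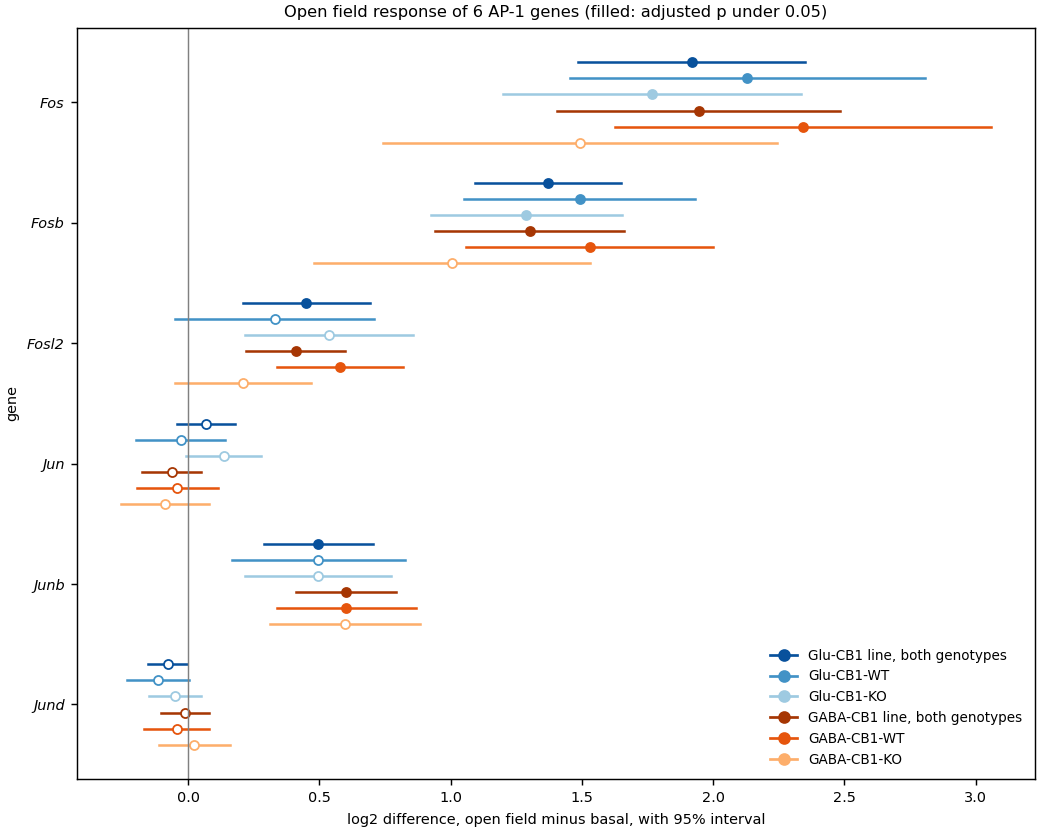
Log2 difference of 6 AP-1 genes between open field and basal libraries, with 95% intervals, in each line over both genotypes and within each genotype. Filled points have an adjusted p under 0.05 (edgeR). The intervals of *Fos*, *Fosb* and *Junb* lie above 0 in all 6 comparisons, and those of *Jun* span 0.

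In basal GABA-CB1-KO mice 1 library, replicate 5, stood apart. *Fos* was at 9.65 CPM there against 1.16 to 2.88 CPM in the other 5, *Fosb* at 9.07 against 2.51 to 3.82 CPM and *Fosl2* at 68.0 against 38.1 to 48.5 CPM, whereas *Junb* at 16.6 CPM lay within the range of the others. It was also above all others of its group in 8 of 13 further immediate early genes, for instance *Egr2* at 9.71 against 0.803 to 1.47 CPM. Its marker sums lay above all others for oligodendrocytes (5066 against 3621 to 4455 CPM) and choroid plexus (87.6 against 48.3 to 76.8 CPM). Blood, read from *Alas2* alone since the hemoglobin genes had no reads, was at 1.99 against 0.899 to 1.72 CPM. The sums lay below all others for microglia (369 against 392 to 407 CPM) and subiculum and cortex (166 against 177 to 210 CPM). They were barely below for interneurons (932.8 against 933.0 to 986.9 CPM) and CA pyramidal cells (2489 against 2492 to 2787 CPM). The part of these sums in the result was not tested. Without replicate 5, *Fos* rose in GABA-CB1-KO mice by 2.14 (adjusted p = 0.000774) and *Fosb* by 1.46 (adjusted p = 9.73e-05), while *Junb* was not called. A second library stood apart in the opposite sense. The open field library of Glu-CB1-WT replicate 5 was below the other 4 of its group in 5 of the 6 members and in 11 of the 13 other immediate early genes. Its marker sums lay above all others for microglia (477 against 381 to 402 CPM), oligodendrocytes (4144 against 3624 to 4011 CPM) and astrocytes (2312 against 2080 to 2286 CPM). They lay below all others for interneurons (858 against 925 to 1016 CPM). Blood, again *Alas2* alone, was at 2.33 against 1.14 to 1.85 CPM. The part of these sums was not tested. Both were singled out after their values were seen.

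**Figure D4:**
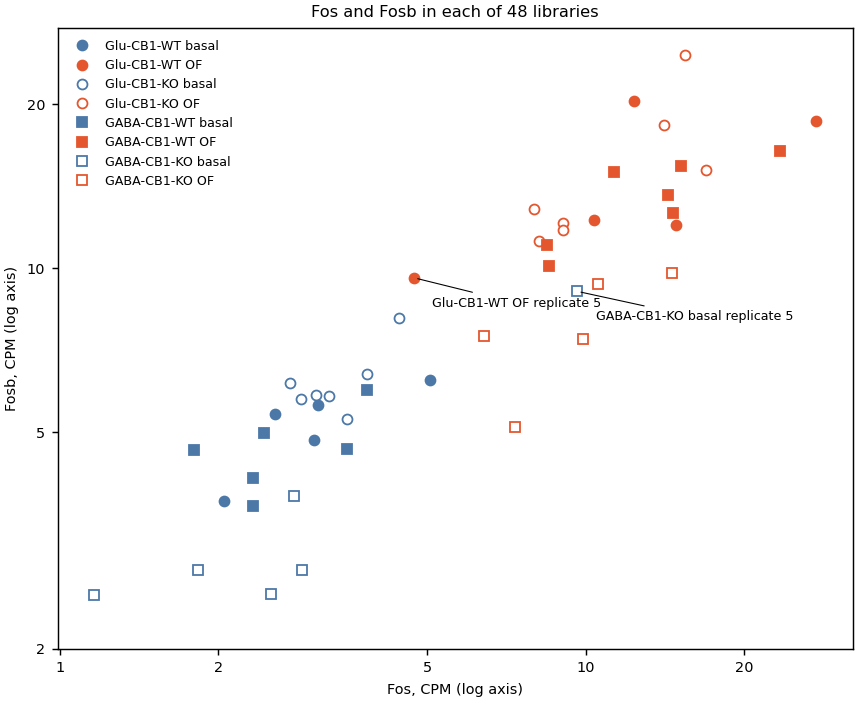
*Fos* against *Fosb* in CPM (log axes) in 48 libraries, circles for the Glu-CB1 and squares for the GABA-CB1 line, filled for CB1-WT and open for KO, blue for basal and red for open field (OF). The named libraries are Glu-CB1-WT open field replicate 5 (*Fos* 4.72, *Fosb* 9.60 CPM) and GABA-CB1-KO basal replicate 5 (9.65, 9.07 CPM). On the *Fosb* axis, open squares lie at 2.51 to 3.82 CPM in 5 of 6 basal and 5.11 to 9.81 CPM in 5 open field libraries. Filled squares lie at 3.66 to 5.98 CPM (basal) and 10.1 to 16.4 CPM (open field). The KO difference of *Fosb* was called by edgeR in neither state of this line.

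No member passed the test between KO and CB1-WT mice in either line or state. The unadjusted p was under 0.05 for 2 members, both in the open field GABA-CB1 line, where 2000 of 15097 genes had such a p. In the basal Glu-CB1 line the log2 differences between KO and CB1-WT ran from -0.06 for *Jun* to 0.26 for *Fosb* (-0.00 to 0.53, adjusted p = 0.999), beside 0.0198% of genes called. After the open field they ran from -0.27 for *Fos* to 0.28 for *Fosl2* (-0.07 to 0.64, adjusted p = 0.879), beside 0.272% of genes. In the basal GABA-CB1 line they ran from -0.26 for *Fosb* (-0.87 to 0.36, adjusted p = 0.833) to 0.36 for *Fos* (-0.51 to 1.23, adjusted p = 0.834), beside 0.245% of genes.

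The widest separation was that of *Fosb* in the open field groups of the GABA-CB1 line. All 5 KO libraries, at 5.11 to 9.81 CPM, lay below all 7 CB1-WT libraries, at 10.1 to 16.4 CPM. Every KO library was lower in 0.417% of genes. The difference was -0.78 (-1.11 to -0.46), with an unadjusted p of 0.000131 and an adjusted p of 0.132, in a comparison that called 0.0199% of 15097 genes, and it stayed uncalled in every fit that left out 1 library (adjusted p from 0.0896 to 0.284). DESeq2 gave *Fosb* an unadjusted p of 5.10e-07 there but no adjusted p, since its own filter on low mean counts set the gene aside, so that tool neither called nor refused it. *Fos* differed there by -0.49 (-1.02 to 0.04, adjusted p = 0.410) and *Fosl2* by -0.24 (-0.41 to -0.06, adjusted p = 0.285), while *Junb* at 0.02 (-0.24 to 0.28) showed no such shift. Markers differed in the same comparison. The 8 interneuron markers summed to 926 to 967 CPM in KO and 994 to 1064 CPM in CB1-WT libraries, without overlap. Of these markers 5 had an unadjusted p under 0.05, as 2000 of the 15097 genes tested did. Of the 6 choroid plexus markers 5 did, with a median log2 difference of 2.32, and their sum was 4039 CPM in KO replicate 4 against 62.3 to 95.5 CPM in the other KO libraries and 51.1 to 91.2 CPM in CB1-WT libraries. Without that library the difference of *Fosb* was -0.88 (adjusted p = 0.142). The part of the interneuron markers was not tested. In the basal state *Fosb* was at 2.51 to 3.82 CPM in 5 of the 6 KO libraries and at 3.66 to 5.98 CPM in the 6 CB1-WT libraries. Without replicate 5, which was singled out by values that include *Fosb*, the basal difference of *Fosb* was -0.71 (adjusted p = 0.0832). That adjusted p was the lowest of the 12 fits that left out 1 library (highest 0.932).

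**Figure D5:**
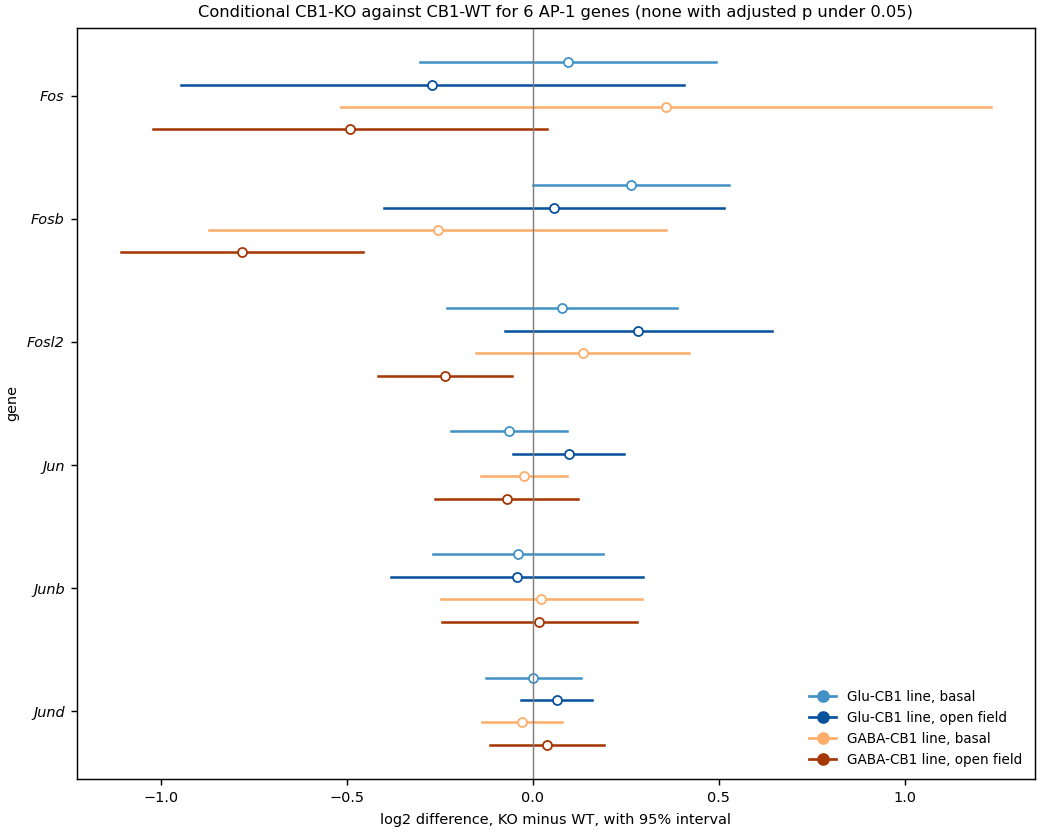
Log2 difference of 6 AP-1 genes between conditional CB1-KO and CB1-WT libraries, with 95% intervals, in each line and state; no adjusted p is under 0.05. The interval of *Fosb* in the open field GABA-CB1 line runs from -1.11 to -0.46, and those of *Jun* and *Jund* span 0 throughout.

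Whether genotype altered the response was tested directly. The interaction was not significant for any member in the Glu-CB1 line, with estimates from -0.36 for *Fos* (-1.24 to 0.52) to 0.21 for *Fosl2*, and 0 of 15355 genes were called (0%, 379 at an unadjusted p under 0.05). In the GABA-CB1 line the estimates were -0.85 for *Fos* (-1.89 to 0.19, adjusted p = 0.431), -0.53 for *Fosb* (-1.23 to 0.18, adjusted p = 0.473), -0.37 for *Fosl2* (-0.72 to -0.02, adjusted p = 0.323) and -0.01 for *Junb* (-0.39 to 0.38), with 0 of 15374 genes called by edgeR (0%, 2237 at an unadjusted p under 0.05). Without GABA-CB1-KO basal replicate 5 the estimates were -0.20 for *Fos* and -0.0692 for *Fosb*. The difference of the KO effect between the lines passed the test for no member, beside 0.279% of genes called among basal and 0.568% among open field libraries. The estimates for *Fosb* were 0.52 (-0.17 to 1.21, adjusted p = 0.699) in the basal state and 0.84 (0.24 to 1.43, adjusted p = 0.247) after the open field, both in the sense of a higher KO effect in the Glu-CB1 line. That of *Fosl2* after the open field was 0.52 (0.10 to 0.94, adjusted p = 0.326). Leaving out GABA-CB1-KO basal replicate 5 moved the basal value of *Fosb* to 0.97 (adjusted p = 0.0248). That library was singled out after its values, *Fosb* among them, were seen. Of the 24 fits that left out 1 library, only 1, this one, gained a call (adjusted p from 0.0248 to 0.848).

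The animal numbers in the labels fall into 2 ranges per line, which may mark cohorts. Within ranges the open field difference of mean log2 CPM was 1.74 and 2.03 for *Fos* and 1.37 and 1.22 for *Fosb* in the Glu-CB1 line, and 2.32 and 1.82 for *Fos* and 1.38 and 1.43 for *Fosb* in the GABA-CB1 line. For *Junb* the values were 0.39, 0.64, 0.56 and 0.63, and for *Fosl2* 0.45, 0.35, 0.51 and 0.34, so all 4 genes were higher in each range. The KO difference of *Fosb* in the GABA-CB1 line was -0.76 and -0.28 among basal libraries and -1.04 and -0.43 among open field libraries. That of *Fos* was -0.74 and 0.35 among basal libraries and -0.79 and 0.01 among open field libraries. These genotype values rest on 2 to 4 libraries per side and were not tested.

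Ordered by mean log2 CPM, the 4 open field groups stood above the 4 basal groups for *Fos*, *Fosb*, *Fosl2* and *Junb*. For *Fos* the only neighbours that differed beyond their spread were open field GABA-CB1-KO and basal Glu-CB1-KO mice, at the border of the states (1.47 apart, exact permutation test, two-sided, p = 0.00126, the smallest it can give, adjusted p = 0.00884 over 7 neighbours). For *Fosb*, 3 open field groups stood together and open field GABA-CB1-KO mice came next, 0.79 lower (exact permutation p = 0.00253, adjusted p = 0.0177 over 7 neighbours). That step is the open field contrast of GABA-CB1-KO with CB1-WT mice, which did not pass over all genes, and the neighbours were set by the observed order. The next step, to basal Glu-CB1-KO mice, was 0.31 and within the spread (exact permutation p = 0.0833). No neighbours differed for *Fosl2*, *Jun*, *Junb* or *Jund* after adjustment, and in *Jun* and *Jund* the states were mixed in the order.

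Among mice of one group, several members varied together. Deviations of log2 CPM from the group means were correlated in 15 pairs of members within each state, over 24 libraries, with permutation within groups and adjustment over all 30 values. *Fos* and *Fosb* were correlated among basal libraries (r = 0.850, rho = 0.648, permutation adjusted p = 0.000900 and 0.0115) and among open field libraries (r = 0.737, rho = 0.763, adjusted p = 0.000900 and 0.00150). Without the 2 libraries whose log2 CPM of *Fos* lay farthest from its median over the state, r was 0.631 and 0.687. In every pair the 2 libraries were chosen in this way by a single gene of the pair, not by deviations from group means. *Fos* and *Junb* reached the highest value of all after the open field (r = 0.894, rho = 0.860, adjusted p = 0.000300 for both, 0.848 without 2 libraries), against r = 0.329 and rho = 0.183 in the basal state (adjusted p = 0.451 and 0.725), a difference that was not tested. In all, 8 of the 30 values passed by r, 5 by rho and 5 by r without 2 libraries. *Fosb* and *Fosl2* were correlated after the open field too (r = 0.789, rho = 0.772, adjusted p = 0.000450 and 0.000900, 0.780 without 2 libraries). With the means of each animal number range removed as well, these values were 0.840 and 0.702 for *Fos* with *Fosb*, 0.874 for *Fos* with *Junb* and 0.815 for *Fosb* with *Fosl2*. *Jun* and *Jund* passed with none of these genes except *Jun* with *Fosl2* after the open field (r = 0.447, adjusted p = 0.0388), which no longer passed by rank (rho = 0.496, adjusted p = 0.0508) or without 2 libraries (r = 0.343). All values of a library share its depth and scaling.

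The genes most like each member over the 48 libraries were found by Pearson's r of log2 CPM, as a description. For *Fos* they were *Egr4* (0.931), *Egr2* (0.928), *Egr1* (0.922), *Fosb* (0.909) and *Nr4a1* (0.889), all activity-regulated transcription factors. For *Junb* they were *Nr4a1* (0.908), *Arc* (0.891), *Egr4* (0.883), *Gadd45b* (0.872) and *Fos* (0.848). *Fosb* was most like *Fos*, *Egr4* (0.874), *P4ha1* (0.852), *Prkab2* (0.839) and *Egr3* (0.824), and *Fosl2* most like *Nr4a2* (0.850), *Mtmr4* (0.809), *P4ha2* (0.791), *Sik1* (0.777) and *Fosb* (0.775). *P4ha1* and *P4ha2* encode subunits of collagen prolyl 4-hydroxylase, and *Sik1* a salt-inducible kinase. *Jun* was nearest to *Ankrd6* (0.766) and *Jund* to *Irf2bpl* (0.689), and no other member was among the 5 nearest of either. With group means removed, which takes out the response itself, *Egr2* (0.842) and *Egr1* (0.823) led for *Fos*, *Fam46a* (0.822) and *P4ha1* (0.796) for *Fosb*, *Nr4a2* (0.777) for *Fosl2* and *Nr4a1* (0.852) and *Arc* (0.821) for *Junb*. All these r values include both libraries that stood apart, which departed from their groups in *Fos* and *Egr2* at once. They were not computed without those libraries.

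Few other genes of the AP-1 pathway were called, beside 1.8% of all genes in the Glu-CB1 and 0.963% in the GABA-CB1 line. An unadjusted p under 0.05 was found in 2135 of 15355 and 1861 of 15374 genes of these lines. Of 14 genes for other leucine zipper partners of Fos and Jun proteins (ATF, BATF, JDP2 and MAF proteins), 10 were tested in the Glu-CB1 line and 1, *Maff*, rose (0.63, adjusted p = 0.0450). Its level was 0.38 CPM (median of 12 basal libraries) and 0.60 CPM (12 open field libraries), and the call was lost in 18 of 24 fits that left out 1 library. Of 11 partners tested in the GABA-CB1 line, edgeR and DESeq2 called 0 (2 at an unadjusted p under 0.05). Of 28 upstream factors and kinases, *Srf*, which encodes the serum response factor, was the only gene to rise, by 0.17 in each line (adjusted p = 0.0225 and 0.0134), and 6 and 2 of the 28 had an unadjusted p under 0.05. Levels of *Srf* ran from 49.2 to 60.4 CPM in basal and 54.1 to 66.5 CPM in open field libraries of the Glu-CB1 line, and no leave-one-out fit of either line lost the call. Among 5 genes for turnover of AP-1 proteins, *Fbxw7*, a ubiquitin ligase subunit that targets Jun, fell by 0.08 in the Glu-CB1 line (adjusted p = 0.0321, lost in 9 of 24 leave-one-out fits).

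Of 16 genes described as AP-1 targets in brain or other tissues, such as *Penk*, *Scg2* and *Ccnd1*, 14 (Glu-CB1 line) and 13 (GABA-CB1 line) were tested, and edgeR and DESeq2 called 0 after the open field (3 and 2 at an unadjusted p under 0.05). Their median log2 difference was -0.000635 and -0.0311. Of 13 other immediate early genes, 7 rose and none fell in each line, beside 1.8% and 0.963% of all genes called, with a median log2 difference of 0.38 and 0.35 in the same order. *Egr2*, a zinc finger factor, rose by 2.40 (adjusted p = 1.16e-06) and 2.27 (adjusted p = 0.00134) in the Glu-CB1 and GABA-CB1 lines. Its levels ran from 0.412 over 1.08 to 1.90 CPM and from 2.16 over 6.26 to 11.5 CPM in basal and open field libraries of the Glu-CB1 line. *Egr1*, *Egr4*, *Egr3*, *Arc*, whose product acts at synapses, and *Nr4a1* passed in both lines, with *Nr4a2* in the Glu-CB1 and *Nr4a3* in the GABA-CB1 line.

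Between genotypes the lists gave 2 calls, both in the basal GABA-CB1 line, where 0.245% of all genes were called. *Rps6ka5*, which encodes the kinase MSK1, was higher in KO mice by 0.25 (adjusted p = 0.0390, lost in 10 of 12 leave-one-out fits). *Npas4*, an activity-regulated factor of neurons, differed by -0.49 (adjusted p = 0.00604). *Npas4* kept its call in all 12 leave-one-out fits but not in the fit of all 48 libraries (adjusted p = 0.616). In the Glu-CB1 line edgeR and DESeq2 called 0 of the 69 list genes tested in either state (6 at an unadjusted p under 0.05 in each), and in the open field GABA-CB1 line edgeR called 0 (15 at an unadjusted p under 0.05) and DESeq2 3. Among all genes such a p was found in 541 of 15138 (basal Glu-CB1), 1051 of 15078 (open field Glu-CB1) and 2000 of 15097 (open field GABA-CB1). The KO effect differed between the lines in *Ier5* in the basal state (0.62, adjusted p = 0.00668) and in *Fbxw7* after the open field (0.18, adjusted p = 0.0302).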

How the data were processed

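RNA of the hippocampal CA region of 48 single mice was amplified and made into libraries with NuGEN Ovation kits and sequenced as single reads. The authors trimmed the reads, aligned them to mm10 with STAR 2.6.0a and counted them per gene with featureCounts 1.6.2 in its reverse-stranded setting, and the deposited values are these raw counts. Groups came from the labels, and replicate numbers name libraries only. The 7 genes and all gene lists were chosen with earlier results of these data known.

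Counts were tested with edgeR 4.0.16 (quasi-likelihood test, TMM factors, filterByExpr by group, Benjamini-Hochberg adjustment over all genes tested, threshold 0.05, two-sided) under R 4.3.3. All adjusted p-values are from this test unless another is named. A line's response was the mean over both genotypes, and 95% intervals used the t quantile of the fit. Named genes were the members, the list genes that passed, and the 5 genes most alike. Levels are CPM, with log2 CPM at a prior count of 2, and CPM per kb divides by counted exon length. Group order used exact permutation tests and correlations used 100000 permutations within groups (scipy 1.17.1). A library with 3 counts or fewer was taken as at the limit of detection, which covers counting error only. The alternatives were DESeq2 1.42.0, its size factors (RLE), looser and stricter filters (1 count in all, 10 in every library), the animal number range, the replicate number as a block, 1 fit of all 48 libraries and leaving out each library. Leaving out both libraries that stood apart was added after seeing the data. The scripts were tested on simulated data. Of 123 pairs of libraries within groups, none was as alike as sampling noise.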

Additional observations from a re-analysis of the deposited data

Results flagged for a closer look

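In 48 sets of 1 member in 1 group, 4 libraries lay far from the rest of their group by Dixon's test, which flags about 1 set in 20 by chance. GABA-CB1-KO basal replicate 5 was the highest in 3 of them, with *Fos* at 9.65 CPM, *Fosb* at 9.07 CPM and *Fosl2* at 68.0 CPM. In Glu-CB1-KO basal replicate 5, *Fosb* was at 8.11 CPM, above the 5.29 to 6.402 CPM of the other 6 libraries.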

How the results depend on the processing

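Under other settings than leaving out 1 library, 454 values of single members kept their direction and side of the threshold, 17 lost and 8 gained a call, and 10 changed sign. Of 119 counts of members called, 110 stayed within 1.5 times. The replicate numbers did not pair the mice (correlation of deviations from -0.335 to 0.377). The block kept only replicate numbers present in every group of a fit, so it also left out libraries where group sizes differed. With the replicate block the counts of members called in the open field response became 2 in the Glu-CB1 line, 1 in Glu-CB1-WT, 0 in Glu-CB1-KO, 1 in the GABA-CB1 line and 0 in GABA-CB1-WT, while the differences stayed close in size (*Fos* 2.35 and *Fosb* 1.50 in GABA-CB1-WT, *Fos* 1.65 in Glu-CB1-KO), and the block turned *Fosb* between genotypes in the open field Glu-CB1 line to -0.0199, *Fosl2* in the basal line difference of the KO effect to 0.0334 and *Fos* in the line difference of the response to 0.00948. DESeq2 called 3 members in GABA-CB1-KO. Without both libraries that stood apart, 2 were called there and 1 in the basal line difference, where *Fos* was 0.38 and *Fosl2* 0.0803, *Fos* in the open field line difference was -0.00160 and *Fosb* in the line difference of the response was -0.0888. With the animal number range, *Fos* was -0.0127 between basal GABA-CB1 genotypes and 0.13 in the basal line difference, and *Fosl2* in the Glu-CB1 line lost its call (adjusted p = 0.0740). The fit of all 48 libraries gave 0.0332 for *Fos* in the line difference of the response and ended the call of *Fosl2* in the GABA-CB1 line (adjusted p = 0.0652). By r without 2 libraries, 5 of 30 correlations passed. Leaving out 1 library gave 2 to 4 members called in GABA-CB1-WT, 0 to 2 in GABA-CB1-KO and 0 to 1 in the basal line difference. The cause of these changes was not tested.

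Uncalled values that changed sign when 1 library was left out ranged as follows. For the response, *Jun* ran from -0.0886 to 0.0283 in Glu-CB1-WT and from -0.0753 to 0.00533 in GABA-CB1-WT, and *Jund* from -0.0433 to 0.00575 in the GABA-CB1 line and from -0.0406 to 0.0746 in GABA-CB1-KO. *Fos* ran from -0.59 to 0.0302 in the Glu-CB1 interaction. Between genotypes in the Glu-CB1 line, *Fos* ran from -0.0222 to 0.33 and *Fosl2* from -0.00338 to 0.15 in the basal state, and *Fos* from -0.49 to 0.13 and *Fosb* from -0.10 to 0.21 after the open field. In basal GABA-CB1 mice *Fos* ran from -0.29 to 0.54 and *Fosl2* from -0.000926 to 0.19. In the line difference of the KO effect, *Fos* ran from -0.45 to 0.38 and *Fosl2* from -0.14 to 0.0803 in the basal state, and *Fos* from -0.00160 to 0.61 after the open field. In the line difference of the response, *Fos* ran from -0.34 to 0.0835, *Fosb* from -0.13 to 0.12 and *Fosl2* from -0.0237 to 0.10.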
